A study of Mus musculus with 4 samples.

Results

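The 10 genes described here write, copy, read, remove or protect DNA methylation: Dnmt1, Dnmt3a, Dnmt3b, Dnmt3l, Uhrf1, Dppa3 (Stella), Tet1, Tet2, Tet3 and Zfp57. They were chosen by function, by their gene identifiers, and all 10 were found among the 17374 genes of the expression table, with 42 of its 45505 transcripts. The table was made from poly(A) RNA of denuded germinal vesicle (GV) oocytes of F1 hybrid mice (C57BL/6 crossed with DBA2J) on day 16 of post-natal development. It holds 4 libraries, 2 of control non-irradiated oocytes (0 Gy) and 2 of oocytes that received 5 Gy of γ-irradiation 24 h before collection, with 59 oocytes for each condition over 2 independent experiments. Oocytes were pooled within a library, no mutant allele or transgene is given for them, and milrinone in the medium held meiosis in arrest. The submitters describe the control oocytes as sequenced directly and give no culture time for them, so irradiation and time in culture cannot be told apart.

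Methylation of the maternal genome is set while the oocyte grows, when replication has ended, by the methyltransferase DNMT3A together with DNMT3L, a relative that has no catalytic activity of its own. DNMT1 copies the pattern to the new strand in dividing cells, guided by UHRF1, which binds DNA methylated on one strand. Growing oocytes store a shorter form of DNMT1 made from a start site upstream of the one used in somatic cells, and Dnmt3l also has an upstream start that is used in oocytes. The TET dioxygenases oxidize 5-methylcytosine. DPPA3 holds back UHRF1 in the oocyte and shields the maternal genome from TET3 in the zygote, and ZFP57 binds methylated imprinted regions and recruits the co-repressor TRIM28.

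Start sites mattered to the results because the counts of Dnmt1 and Dnmt3l were divided among transcripts that begin several kilobases apart. The 4 sequences below are listed promoters of these genes, the last of them that of the minor transcript NM_019448.4, from 250 bases before to 50 bases after each start, as given by RefSeq for GRCm38.p6. They read 5′ to 3′ along the strand of the gene, and capitals mark each CpG, the dinucleotide that these enzymes methylate. They cover chr9:20959839-20960138 and chr9:20952930-20953229 on the minus strand for Dnmt1, and chr10:78042037-78042336 and chr10:78049592-78049891 on the plus strand for Dnmt3l.
Dnmt1 upstream start: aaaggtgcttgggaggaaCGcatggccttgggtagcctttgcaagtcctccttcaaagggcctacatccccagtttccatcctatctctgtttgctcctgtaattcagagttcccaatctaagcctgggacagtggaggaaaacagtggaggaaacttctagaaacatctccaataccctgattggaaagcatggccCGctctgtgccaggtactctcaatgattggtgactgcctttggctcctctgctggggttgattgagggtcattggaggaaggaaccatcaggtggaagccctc
Dnmt1 downstream start: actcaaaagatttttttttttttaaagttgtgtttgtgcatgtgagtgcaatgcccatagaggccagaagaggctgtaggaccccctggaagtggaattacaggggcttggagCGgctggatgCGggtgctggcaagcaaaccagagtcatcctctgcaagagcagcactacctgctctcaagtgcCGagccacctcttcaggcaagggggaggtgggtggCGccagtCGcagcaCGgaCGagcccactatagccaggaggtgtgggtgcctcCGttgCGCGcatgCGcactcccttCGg
Dnmt3l upstream start: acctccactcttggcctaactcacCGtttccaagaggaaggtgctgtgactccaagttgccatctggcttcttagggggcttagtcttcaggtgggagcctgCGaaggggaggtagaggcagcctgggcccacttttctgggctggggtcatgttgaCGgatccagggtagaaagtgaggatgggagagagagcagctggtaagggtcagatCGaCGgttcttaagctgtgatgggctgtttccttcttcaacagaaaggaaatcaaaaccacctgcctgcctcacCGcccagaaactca
Dnmt3l downstream start, NM_019448.4: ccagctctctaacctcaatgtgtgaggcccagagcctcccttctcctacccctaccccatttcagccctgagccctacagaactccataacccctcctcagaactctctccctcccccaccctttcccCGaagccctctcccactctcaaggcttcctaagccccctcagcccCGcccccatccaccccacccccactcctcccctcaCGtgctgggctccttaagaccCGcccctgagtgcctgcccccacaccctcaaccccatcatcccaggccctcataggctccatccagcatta

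The upstream promoter of Dnmt1 held 2 CpGs, and 14.1% of the 32851 mouse promoters in the same set held fewer. The printed downstream promoter of Dnmt1 held 12 CpGs. The printed Dnmt3l promoters held 6 upstream and 4 downstream, with fewer in 43.6% and 31.4% of promoters. Another listed start of each gene, farther downstream and not printed, held 33 CpGs at Dnmt1 and 3 at Dnmt3l. The median over all promoters was 7 CpGs, with an interquartile range of 3 to 20. In total 18 promoters were listed for 9 of the 10 genes. The largest number of CpGs was at Tet2, with 57, and 7 of the 18 promoters lay above that range. The plot of CpGs around the start sites shows that Dnmt1 had the widest range among its own starts, from 2 to 33. Both strands were also searched for 4 short motifs. The E-box letters CANNTG stood in 13 of the 18 promoters (72.3% of all promoters), the GC box letters GGGCGG in 12 (35.7%), the TATA letters TATAAA in 1 (13.6%) and the NOBOX letters TAATTG in 0 (8.0%). In the upstream promoter of Dnmt1 the E-box letters began 36 bases after the start and the GC box letters were not found. The upstream promoter of Dnmt3l held the E-box letters 4 times and the GC box letters once. These matches are descriptions of the letters only.

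**Figure D1:**
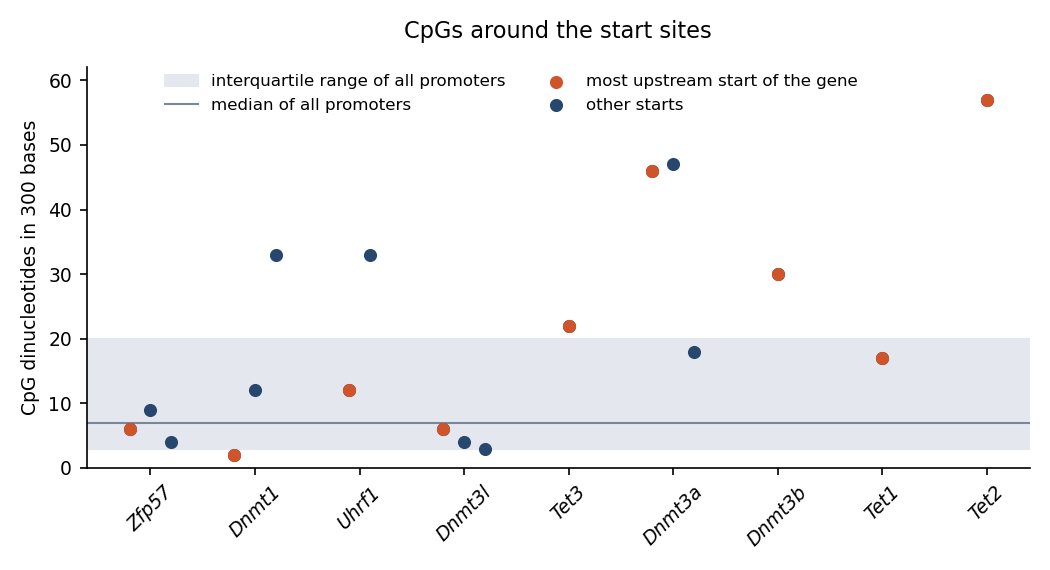
Number of CpG dinucleotides (vertical axis) in the 300 bases around each listed start site of 9 genes (horizontal axis). Each point is 1 start, with the most upstream start of each gene in orange, and the line and band show the median of 7 and the interquartile range, from 3 to 20, of all 32851 promoters. The most upstream start of Dnmt1 has 2 CpGs and that of Tet2 has 57.

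The counts summed to between 33349466 and 37232818 per library. All 14 oocyte markers tested were listed, with a summed level of 30051 to 32199 TPM (a level corrected for transcript length that has the same total in every library), against 17.8 to 24.6 TPM for the 10 listed granulosa and cumulus markers of 14, with Amh, Amhr2, Foxl2 and Wt1 not listed. The 4 listed theca and stroma markers of 6 summed to 0.39 to 0.54 TPM and the 2 listed blood and endothelium markers of 5 to 5.54 to 9.29 TPM. Within the steady oocyte sum, single markers moved in opposite directions in irradiated library 2. Zp2, a zona pellucida gene, had 4290 and 4452 TPM in controls and 4115 and 1937 TPM in irradiated oocytes, and Nobox, an oocyte transcription factor, had 398 and 440 TPM in controls and 468 and 1215 TPM in irradiated oocytes. Both were picked for naming once their values were known. Irradiated library 2 was the highest for each of the 3 non-oocyte lists and stood apart from the rest, and the part of other cells in the results was not tested. Among 3358 genes with a mean normalized count of at least 1000, the median difference between irradiated libraries 1 and 2 was 0.27 in size on the log2 scale, against 0.074 between the controls. Differences that rest on this library are therefore given with and without it.

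The 10 genes covered a wide range of levels, and their order was largely the same in every library, as the plot of levels shows. Dppa3 ranked 3rd of 17374 genes in control oocytes, Zfp57 ranked 175th and Dnmt1 742nd, whereas Tet2 ranked 12207th. By mean control TPM the order was Dppa3, Zfp57, Dnmt1, Uhrf1, Dnmt3l, Tet3, Dnmt3a, Dnmt3b, Tet1 and Tet2. Neighbors in this order did not overlap over the 4 libraries, other than Dnmt1 with Uhrf1 and Dnmt3b with Tet1. Together the 10 genes made up 2.42% and 2.32% of all TPM in control oocytes and 2.20% and 1.76% in irradiated oocytes, nearly all of it Dppa3.

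**Figure D2:**
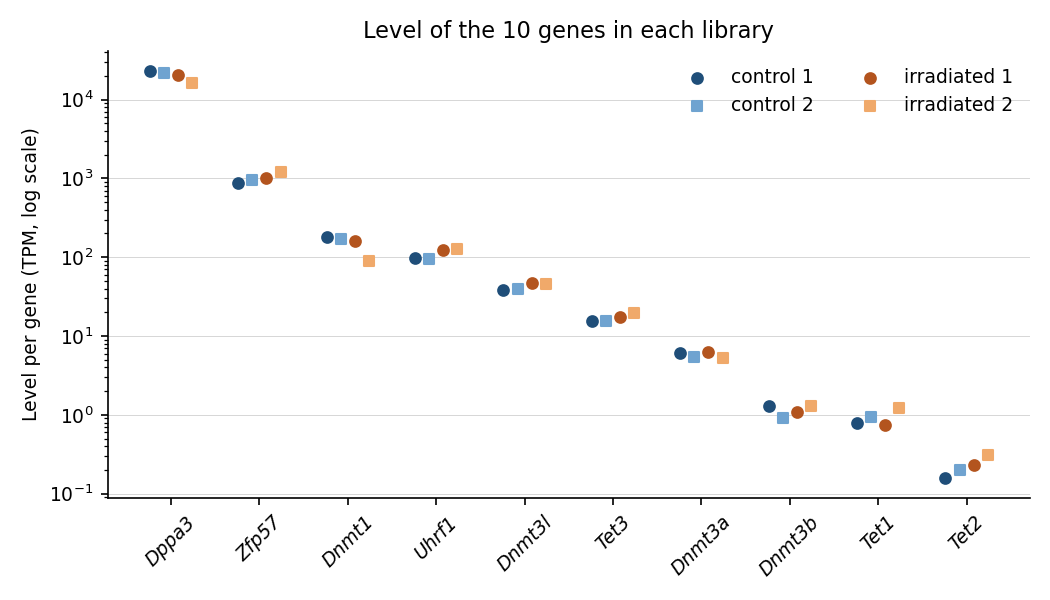
Level of each of the 10 genes (horizontal axis) in TPM on a log scale (vertical axis), with 1 point for each library, circles for library 1 and squares for library 2 of each condition. Levels run from Dppa3 at 16142 to 22942 TPM down to Tet2 at 0.16 to 0.31 TPM, and Dnmt1 in irradiated library 2, at 90.1 TPM, sits below its other 3 libraries.

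To compare conditions, counts were summed over the transcripts of each gene, scaled with TMM factors (written below as normalized counts) and tested with edgeR. Genes were called where the log2 fold change exceeded 2 in either direction at an adjusted p below 0.05. Of the 10 genes, 0 were called, and 0 had an unadjusted p under 0.05, while 1 of 12569 genes tested was called (0.00796%) and 5.92% had an unadjusted p under 0.05. DESeq2 and limma-voom also called 0 of the 10, against 4 and 0 over all genes. On normalized counts, 2 of the 10 genes had both irradiated libraries below both controls (19.9% of all genes tested) and 1 had both above (22.1%). On TPM the counts were 2 below (5.9%) and 5 above (32.8%), so the split depended on the scaling for these genes as it did for all genes. The median log2 fold change of the 10 genes was -0.012, against 0.010 over all genes tested. The largest differences were those of Dnmt1 and Dppa3, both lower in irradiated oocytes, and both came mainly from irradiated library 2. In bulk RNA, less RNA per oocyte and fewer oocytes with the RNA cannot be told apart.

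**Figure D3:**
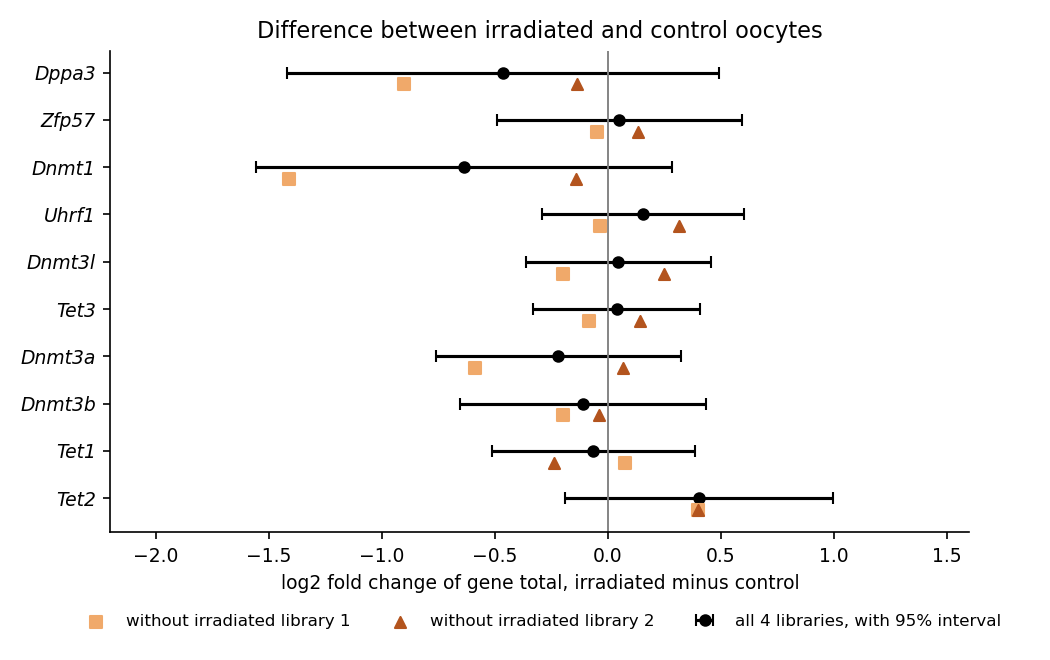
Log2 fold change of the gene total, irradiated minus control (horizontal axis), for each gene (vertical axis). Black points and bars are the estimate from all 4 libraries with its 95% interval, squares leave out irradiated library 1 and triangles leave out irradiated library 2. Each of the 10 intervals includes 0, and the estimate for Dnmt1 moves from -1.41 without irradiated library 1 to -0.14 without irradiated library 2.

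Among the maintenance genes, Dnmt1 had 182 and 170 TPM in control oocytes and 162 and 90.1 TPM in irradiated oocytes. In normalized counts these were 26156 and 22842 in controls and 22202 and 9298 in irradiated oocytes. Irradiated library 1 was therefore close to the lower control, and irradiated library 2 stood well below all the others. For Dnmt1 the log2 fold change was -0.64 ± 0.39 (SE), a 0.643-fold level with a 95% interval of 0.340 to 1.22 and an adjusted p of 0.708. Leaving out irradiated library 2 gave -0.14, and leaving out irradiated library 1 gave -1.41. The difference between the 2 irradiated libraries, 1.26 on the log2 scale, was exceeded in the same direction by 1.37% of the 3358 genes of that level. Dnmt1 was therefore near the top of the genes that were lower in irradiated library 2 than in library 1.

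Uhrf1 had 97.8 and 95.1 TPM in control oocytes and 122 and 128 TPM in irradiated oocytes. Its normalized counts overlapped, with 8890 and 8129 in controls and 10587 and 8390 in irradiated oocytes. For Uhrf1 the log2 fold change was 0.16 ± 0.19 (SE), with a 95% interval of -0.29 to 0.60 and an adjusted p of 0.800. The TPM values separated the conditions and the normalized counts did not. On the log2(TPM + 1) scale the median log2 fold change of all genes tested was 0.14, and 80.3% of them were higher in irradiated oocytes, against 51.4% in normalized counts. A ratio within a library does not depend on this scaling. The TPM of Dnmt1 over that of Uhrf1, a pair chosen after the values were seen, was 1.86 and 1.78 in control oocytes and 1.33 and 0.704 in irradiated oocytes. Both irradiated libraries lay below both controls, and Dnmt1 was the more abundant of the pair in 3 of 4 libraries. With 2 libraries against 2 an exact permutation test cannot give a two-sided p below 0.333.

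Most Dnmt1 counts were assigned to NM_001199432.1, the transcript of the upstream start, which GENCODE places at base 20959888 of chromosome 9 and whose first coding base lies in a later exon. It took 15561 and 12727 counts in control libraries 1 and 2 and 12766 and 7341 in irradiated libraries 1 and 2. NM_001199431.1, whose start at base 20952979 lies 6909 bases downstream and whose coding sequence is longer by 119 residues, took 9420 and 7902 counts in controls and 7684 and 3307 in irradiated oocytes. The upstream transcript therefore held 60.4% to 61.1% of Dnmt1 counts in 3 libraries and 68.0% in irradiated library 2. The count of the upstream over the downstream transcript was 1.65 and 1.61 in controls and 1.66 and 2.22 in irradiated oocytes. Both transcripts were at their lowest in irradiated library 2. Their log2 fold changes were -0.57 ± 0.41 (SE) and -0.72 ± 0.55 (SE), or -0.13 and -0.15 without that library, both with an adjusted p of 1.00 over all transcripts, and the test of isoform usage for Dnmt1 gave an adjusted p of 1.00.

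Uhrf1 was divided mainly between NM_001111078.1 and NM_001111080.1, whose starts GENCODE places 35 bases apart. The former took 73.0% and 79.7% of Uhrf1 counts in controls and 76.5% and 84.8% in irradiated oocytes, and the latter 22.6% and 15.3% in controls and 18.9% and 12.4% in irradiated oocytes. Library 2 of each condition had the larger share of NM_001111078.1, and the conditions overlapped. The adjusted p for isoform usage of Uhrf1 was 1.00.

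**Figure D4:**
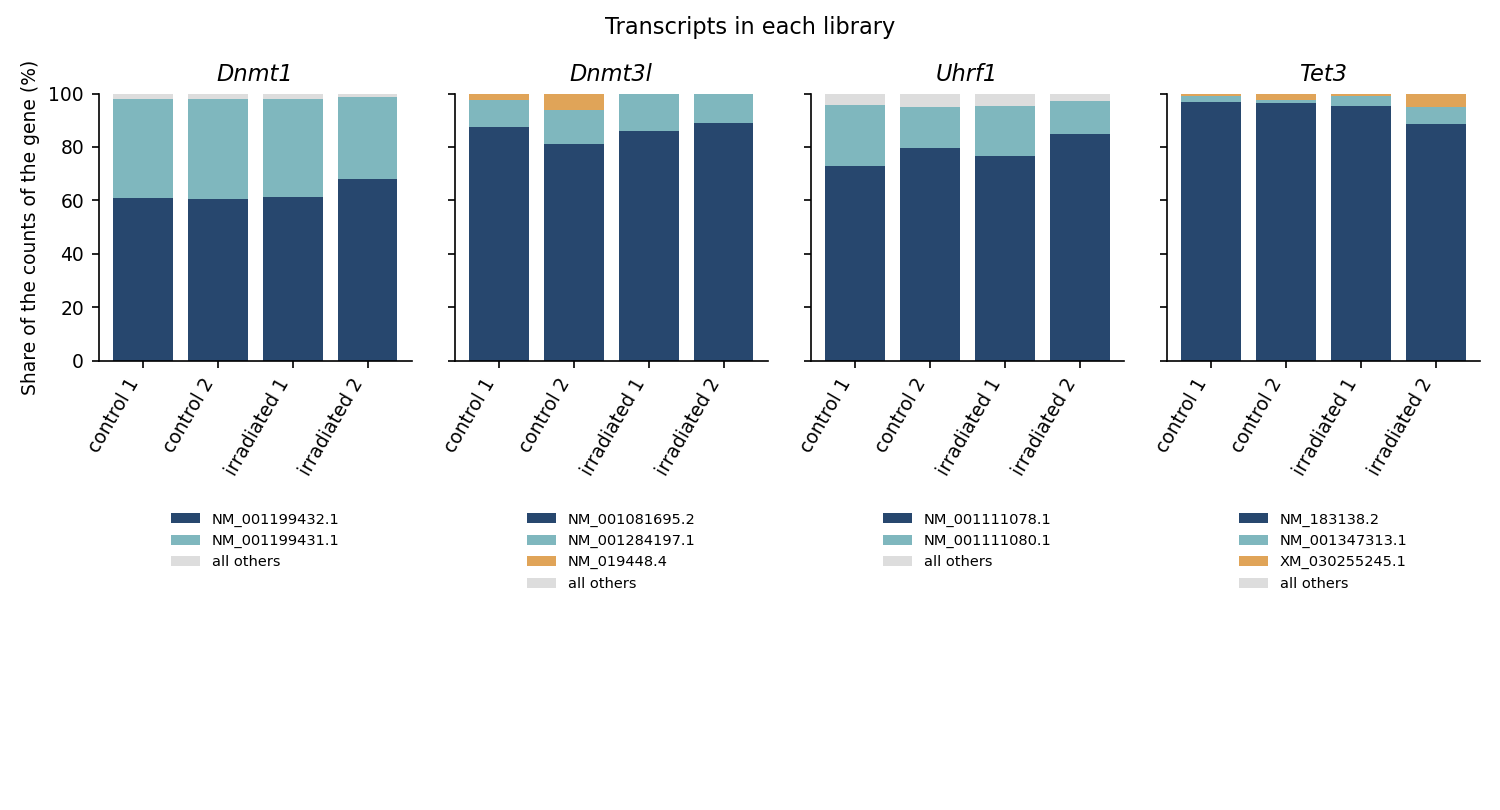
Share of the counts of Dnmt1, Dnmt3l, Uhrf1 and Tet3 (vertical axis, percent) assigned to each transcript in the 4 libraries (horizontal axis). Transcripts that reach 5% in a library are colored and the others are gray. The upstream transcript of Dnmt1 (NM_001199432.1) takes 60.4% to 68.0% and that of Dnmt3l (NM_001081695.2) 81.0% to 89.0%.

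Among the de novo genes, Dnmt3l, the cofactor, was the most abundant, with 38.8 and 39.7 TPM in control oocytes and 47.2 and 46.0 TPM in irradiated oocytes. Its normalized counts overlapped, with 1754 and 1685 in controls and 2043 and 1511 in irradiated oocytes. The log2 fold change was 0.05 ± 0.17 (SE), with a 95% interval of -0.36 to 0.46 and an adjusted p of 0.933. No change in the total of Dnmt3l was detectable in these libraries, and the sign of the estimate followed the irradiated library left out, from -0.20 without library 1 to 0.25 without library 2.

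The upstream start of Dnmt3l, at base 78042287 of chromosome 10, served NM_001081695.2, which took 1497 and 1260 counts in controls and 1653 and 1563 in irradiated oocytes. This transcript held 81.0% to 89.0% of Dnmt3l counts in all 4 libraries. Its log2 fold change was 0.11 ± 0.17 (SE), with an adjusted p of 1.00. The start lies within Aire, which overlaps Dnmt3l by 1324 bases and had 76 to 158 counts per library. NM_001284197.1, from a start at base 78049959, outside the printed sequences, took 176 and 199 counts in controls and 268 and 192 in irradiated oocytes. NM_019448.4, from a start at base 78049842, 7555 bases downstream of the first, had 36 and 97 counts in controls and 0 in both irradiated libraries. All 3 transcripts share the start codon at base 78050083 and encode a protein of the same length, 421 residues. Against a floor of 3 counts per library, the control mean of NM_019448.4 was at least 24.3-fold higher as the reads were assigned. This bound leaves out the error of dividing reads among transcripts of Dnmt3l, of which NM_001284197.1 starts close by. A loss of NM_019448.4 cannot be told apart from a different division of reads. DESeq2 called it (adjusted p = 0.0052), as it did 248 of 28757 transcripts (0.862%), and edgeR did not (adjusted p = 0.777). Transcripts above 3 counts in both controls and in neither irradiated library made up 1.68% of all transcripts, and the isoform usage of Dnmt3l had an adjusted p of 0.162 in diffSpliceDGE.

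Dnmt3a, the catalytic partner, had 6.14 and 5.44 TPM in controls and 6.20 and 5.25 TPM in irradiated oocytes. The conditions overlapped, with a log2 fold change of -0.22 ± 0.23 (SE), a 95% interval of -0.76 to 0.32 and an adjusted p of 0.773. Without irradiated library 2 the estimate was 0.07, and without irradiated library 1 it was -0.59. Between 99.0% and 99.4% of Dnmt3a counts went to the predicted transcript XM_030246540.1. Its TPM was worth 2.17 times as many counts as that of the curated NM_153743.4, so the level of Dnmt3a per length depended on which transcript the reads were assigned to. The TPM of Dnmt3l was 6.32 and 7.30 times that of Dnmt3a in controls and 7.61 and 8.76 times in irradiated oocytes, under that assignment.

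Dnmt3b, the de novo enzyme best known from the early embryo, was close to the limit of what could be divided among transcripts. Its level was 1.31 and 0.92 TPM in controls and 1.08 and 1.28 TPM in irradiated oocytes, from 128 and 88 counts against 104 and 116. The totals overlapped, with a log2 fold change of -0.11 ± 0.23 (SE), a 95% interval of -0.65 to 0.44 and an adjusted p of 0.879. Its 9 transcripts varied far more than the total. XM_006498684.3 had 0 and 34 counts in controls and 41 and 0 in irradiated libraries 1 and 2. For XM_030247218.1 the counts were 59 and 0 in controls and 0 and 10 after irradiation. For XM_030247217.1 they were 25 and 10 in controls and 17 and 8 after irradiation. NM_001122997.2 had 0 counts in both controls and 21 and 74 in irradiated oocytes, at least 13.8-fold higher against the floor of 3 counts per library, while NM_001271744.1 had 0 and 44 counts in controls and 0 and 8 in irradiated oocytes. Transcripts seen only in irradiated oocytes by this rule made up 2.21% of all transcripts, and the adjusted p of NM_001122997.2 was 0.777 in edgeR and 0.0744 in DESeq2. Dnmt3a, Dnmt3b, Dnmt3l and Dppa3 each have an annotated pseudogene (Dnmt3a-ps1, Dnmt3b-ps1, Dnmt3l-ps1 and Dppa3-ps), and the counts may share reads with these copies.

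Of the 3 TET genes, Tet3, which acts on the paternal genome after fertilization, was the most abundant. It had 15.7 and 15.4 TPM in control oocytes and 17.4 and 19.9 TPM in irradiated oocytes. This was 16.1 to 23.2 times the level of Tet1 and 64.1 to 98.1 times that of Tet2 in the same library. Normalized counts of Tet3 overlapped, with 4737 and 4346 in controls and 5009 and 4330 in irradiated oocytes. The log2 fold change of Tet3 was 0.04 ± 0.16 (SE), with a 95% interval of -0.33 to 0.41 and an adjusted p of 0.936.

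The main transcript of Tet3, NM_183138.2, held 96.7% and 96.3% of its counts in controls and 95.4% and 88.5% in irradiated oocytes. In irradiated library 2 more went to NM_001347313.1, which had 115 and 45 counts in controls and 177 and 318 in irradiated oocytes, and to XM_030255245.1, with 39 and 103 in controls and 38 and 263 in irradiated oocytes. The log2 fold change of NM_001347313.1 was 1.49 ± 0.55 (SE), with a 95% interval of -0.07 to 3.05 and an adjusted p of 1.00. Without irradiated library 2 it was 1.18, and that of XM_030255245.1 went from 0.84 to -0.90. Isoform usage of Tet3 had an adjusted p of 1.00.

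Tet1 had 0.78 and 0.94 TPM in controls and 0.75 and 1.23 TPM in irradiated oocytes, from 160 to 248 counts per library. The conditions overlapped, with a log2 fold change of -0.06 ± 0.19 (SE) and an adjusted p of 0.914. Tet1 counts were divided between XM_030245174.1, with 75.1% to 83.3%, and NM_001253857.2, with 16.7% to 24.9%. Tet2 was the lowest of the 10 genes, with 0.16 and 0.20 TPM in controls and 0.23 and 0.31 TPM in irradiated oocytes, from 38 and 43 counts against 53 and 66. It was the 1 gene of the 10 with both normalized irradiated counts (56.4 and 56.8) above both controls (39.0 and 46.6). Its log2 fold change was 0.40 ± 0.25 (SE), a 1.32-fold level with a 95% interval of 0.878 to 2.00 and an adjusted p of 0.709. All Tet2 counts of a library went to a single transcript, XM_006501283.4 in control library 1 and NM_001040400.2 in the other 3.

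Among the genes that protect methylation, Dppa3 had 22942 and 21911 TPM in controls and 20596 and 16142 TPM in irradiated oocytes. This was 2.29% and 2.19% of all TPM in controls and 2.06% and 1.61% in irradiated oocytes. In normalized counts the controls had 405083 and 368727 and the irradiated libraries 352199 and 209215. Both irradiated libraries were below both controls, the first by less than the controls differed from each other. For Dppa3 the log2 fold change was -0.46 ± 0.40 (SE), a 0.726-fold level with a 95% interval of 0.374 to 1.41 and an adjusted p of 0.741. Without irradiated library 2 the estimate was -0.13, and without irradiated library 1 it was -0.90. Dppa3 has 1 listed transcript, so its counts could not shift between transcripts. The TPM of Dppa3 over that of Uhrf1, a pair also chosen after the values were seen, was 235 and 230 in controls and 169 and 126 in irradiated oocytes.

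Zfp57 was higher in both irradiated libraries on the TPM scale, and its normalized counts overlapped. It had 868 and 958 TPM in controls and 1014 and 1193 TPM in irradiated oocytes, whereas its normalized counts were 40665 and 42334 in controls and 45492 and 40479 in irradiated oocytes. The log2 fold change was 0.05 ± 0.23 (SE), with a 95% interval of -0.49 to 0.59 and an adjusted p of 0.944. The shares of its main transcripts varied little. NM_001013745.2 held 81.0% to 82.1% and XM_017317459.2 held 17.1% to 18.0% of its counts over the 4 libraries.

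At the level of transcripts, 31 of the 42 were tested with edgeR and 0 were called, as were 0 of all 26645 transcripts (0%), of which 1306 had an unadjusted p under 0.05. Of the 31, 2 had an unadjusted p under 0.05, NM_019448.4 of Dnmt3l and NM_001122997.2 of Dnmt3b. Isoform usage could be tested for 8 of the 10 genes, and 0 passed, against 16 of 6323 genes (0.253%). Of these, Dnmt3l alone had an unadjusted p under 0.05 for usage, with the adjusted value given above. Of the 42 transcripts, 24 had more than 3 counts in all 4 libraries and 7 did so in a single library.

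The wider methylation pathway was examined in 7 groups of 53 genes, of which 51 were listed and 47 passed the filter on low counts. Of these 47 genes, 0 were called by edgeR, which called 1 of all 12569 genes tested. DESeq2 and limma-voom also called 0 of the 47, against 4 and 0 over all genes. The median log2 fold change of the 47 genes was -0.10, with 16 genes higher and 31 lower, against 0.010 over all genes tested. This split followed the scaling, with 29 higher and 18 lower by library size alone and 36 higher and 11 lower on the log2(TPM + 1) scale. All genes tested shifted with the scaling as well. In normalized counts 34.0% of the 47 genes and 51.4% of all genes were higher. By library size alone these shares were 61.7% and 73.0%, and on the log2(TPM + 1) scale 76.6% and 80.3%. The number with an unadjusted p under 0.05 was 2 of 47, against 5.92% of all genes. Both had higher estimates. Shmt2, the mitochondrial serine hydroxymethyltransferase that feeds one-carbon units, had 13.5 and 14.3 TPM in controls and 18.0 and 27.8 TPM in irradiated oocytes. Its log2 fold change was 0.47 ± 0.14 (SE), with an adjusted p of 0.708. Mbd3, a subunit of the NuRD complex, had 11.1 TPM in both controls and 13.7 and 20.9 TPM in irradiated oocytes. Its log2 fold change was 0.40 ± 0.14 (SE), with an adjusted p of 0.708. In both genes irradiated library 2 was the highest, and without it the estimates were 0.36 for Shmt2 and 0.29 for Mbd3.

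**Figure D5:**
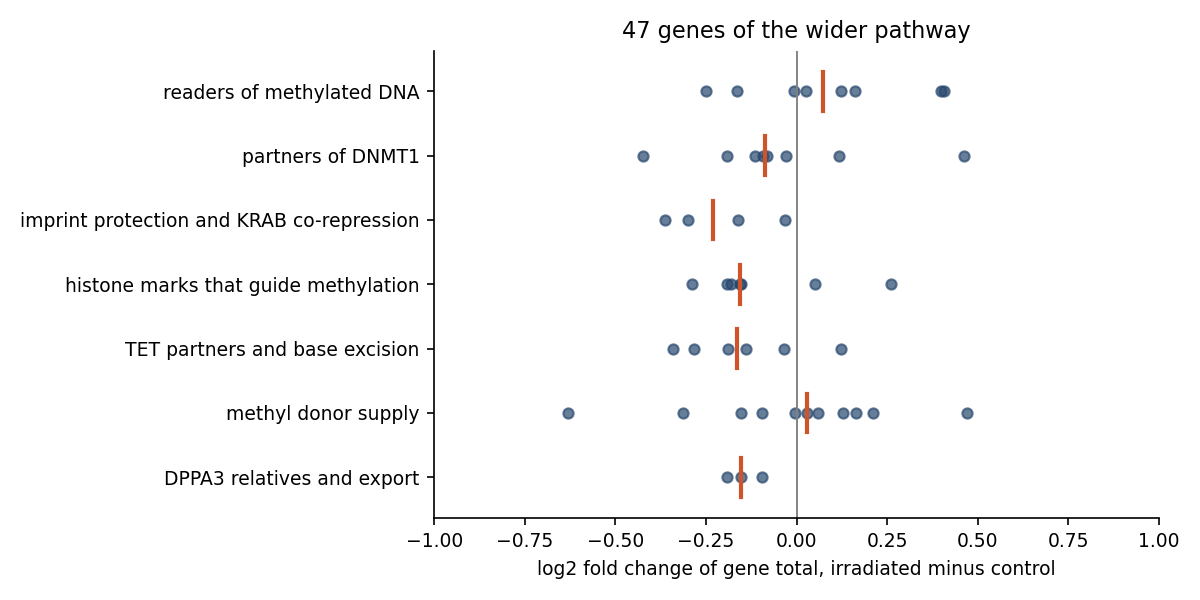
Log2 fold change of the gene total, irradiated minus control (horizontal axis), for the 47 tested genes of the wider pathway in 7 groups (vertical axis). Each point is a gene and each orange bar is the median of its group. On this scaling, with TMM factors, the group medians lie between -0.23 and 0.07, and the highest point is Shmt2, at 0.47.

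The 4 genes of imprint protection and KRAB co-repression (Trim28, Setdb1, Zfp445 and Smchd1) and the 3 genes grouped with DPPA3 (Dppa2, Dppa4 and the exportin gene Xpo1) all had negative estimates in normalized counts, with medians of -0.23 and -0.15 and no gene called. On the log2(TPM + 1) scale 2 of the 4 and all 3 of the others were higher, so these directions depended on the scaling. Trim28, the partner of ZFP57, had 14.7 and 13.1 TPM in controls and 15.0 and 16.8 TPM in irradiated oocytes, with a log2 fold change of -0.03 ± 0.15 (SE), or 0.08 without irradiated library 2. Dppa2 had 212 and 223 TPM in controls and 200 and 247 TPM in irradiated oocytes, so the conditions overlapped. Among the 8 genes grouped as partners of DNMT1, a list that also holds Trdmt1, 2 had higher and 6 lower estimates. On the log2(TPM + 1) scale 7 of the 8 were higher. Usp7, a deubiquitinase that binds DNMT1, had the lowest of these at -0.42 ± 0.21 (SE), from 27.8 and 30.4 TPM in controls and 26.6 and 23.2 TPM in irradiated oocytes, and at -0.15 without irradiated library 2. Kat5, an acetyltransferase, had the highest at 0.46 ± 0.31 (SE), from 3.35 and 3.76 TPM in controls and 3.21 and 8.64 TPM in irradiated oocytes, so that irradiated library 2 alone was high. Without that library the estimate for Kat5 was -0.12. Pcna, the replication clamp, was the most abundant of the group, with 96.6 and 98.9 TPM in controls and 86.8 and 114 TPM in irradiated oocytes.

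Among the genes for histone marks that guide methylation, 2 of 7 had higher estimates in normalized counts and 5 on the log2(TPM + 1) scale. Kdm1b, the H3K4 demethylase needed for maternal imprints, was the most abundant, with 60.2 and 62.5 TPM in controls and 61.7 and 66.6 TPM in irradiated oocytes and a log2 fold change of -0.18 ± 0.19 (SE), or 0.02 without irradiated library 2. Of the TET partners and base excision genes, 6 of 10 were tested and 1 had a higher estimate, against 3 on the log2(TPM + 1) scale. Apex1, the abasic site endonuclease, was the most abundant, with 68.9 and 72.1 TPM in controls and 73.2 and 87.3 TPM in irradiated oocytes. Among the genes of methyl donor supply, 6 of 11 tested had higher estimates, against 9 on the log2(TPM + 1) scale. Mat2b, the regulatory subunit of the enzyme that makes S-adenosylmethionine, had 1714 and 1699 TPM in controls and 1813 and 1730 TPM in irradiated oocytes, and its log2 fold change was -0.15 ± 0.28 (SE), or 0.07 without irradiated library 2. Among the genes grouped as readers of methylated DNA, 5 of 8 tested had higher estimates, against 7 on the log2(TPM + 1) scale. Mbd3 was the most abundant of this list, and binding of its product to methylated DNA was not examined.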

How the data were processed

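Poly(A) RNA from 4 libraries of mouse oocytes was sequenced with paired-end reads of 100 bp. The submitters' processing notes name HISAT2, Bowtie2, RSEM and mm10; versions, the annotation release and the strand setting of the counting are not given in the sources used here. For every RefSeq transcript the authors deposited an estimated count, not scaled for library size, and a TPM value. Of the other columns, 10 (4 of FPKM and 6 of averages) were not used. Reads that match several transcripts of a gene had already been divided among them, which adds error to transcripts and not to gene totals.

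Counts were summed per gene and rounded to whole numbers. They were tested with edgeR 4.0.16 in R 4.3.3, with filterByExpr at a minimum count of 10, TMM factors (0.923 and 0.975 for the controls, 0.937 and 1.19 for the irradiated libraries), glmQLFit and glmQLFTest, no block, and Benjamini-Hochberg adjustment over all genes or transcripts. Features were called where the log2 fold change exceeded 2 in either direction at an adjusted p below 0.05. SE and 95% intervals come from the same fit. Isoform usage was tested with diffSpliceDGE and Simes' method. The fits were also run on simulated counts, whose spread was set below that of the transcripts here (common dispersion of 0.473 in edgeR). That run therefore does not bear on the transcript and usage tests of these data. DESeq2 1.42.0 and limma 3.58.1 were alternatives, with log2(TPM + 1) for the latter and a pseudocount of 1. The floor was set at 3 counts per library.

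Libraries were grouped by their titles. The 2 libraries of a condition come from independent experiments, and whether equal numbers mark the same experiment is not given in the sources used here. The edgeR p-values rest on the spread between 2 libraries per condition, which the fit moderates for each gene by that of other genes. The 10 genes and the wider lists were chosen with earlier results of these data known. All 10 genes are named, with transcripts that hold at least 10% of the counts of a gene or were seen in 1 condition only. In the wider lists the called genes were to be named and, as there were 0, the 2 highest and 2 lowest estimates and the most abundant gene of each group; 1 of these is not reported here. Other genes and transcripts were named after their values were seen. Start sites come from GENCODE vM21 and promoters from RefSeq, both on GRCm38.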

Additional observations from a re-analysis of the deposited data

How the results depend on the processing

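With 2 libraries per condition, a change below the limits of a call could not be told from no change, and irradiated library 2 set most of the spread. An estimate beyond the limit on fold change could also go uncalled. In the edgeR fit of transcripts, NM_019448.4 of Dnmt3l had a log2 fold change of -9.14 and an adjusted p of 0.777. No gene total of the 10 genes and no gene of the wider lists was called under the 12 and 11 other settings tried for them, apart from the combination described below. Among transcripts of the 10 genes, DESeq2 called 1, and the other settings called 0, including an exact test without a filter that was chosen after seeing the data. Isoform usage could be tested for 8 of the 10 genes in the reported fit, and 0 of the genes passed in any setting tried. Over all features, calls ranged more widely: 1 gene total in the reported fit, 4 with DESeq2, 3 without the filter, 0 with library size alone and 16 to 84 when 1 library was left out; 0 transcripts against 248 with DESeq2 and 140 with the exact test; and 16 genes for usage against 58 with the F test, 0 with limma, 3 with a replicate block and 1 to 29 when 1 library was left out.

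Dnmt1 and Dppa3 stayed lower and Tet2 higher in irradiated oocytes in all 11 settings tried for each gene. These are the genes whose normalized counts did not overlap between conditions, as in 19.9% (lower) and 22.1% (higher) of all genes tested. Leaving out 1 library could therefore hardly change their sign, and the other settings refit the same 4 libraries. The constant sign is thus no separate evidence of a change. The other 7 genes changed sign in at least 1. With library size alone, which shifted the median of all genes to 0.17, Dnmt3b became 0.051 and Tet1 0.11; on the log2(TPM + 1) scale, where that median was 0.14, they became 0.048 and 0.088. When 1 library was left out, the estimates ran from -0.032 to 0.32 for Uhrf1, -0.59 to 0.069 for Dnmt3a, -0.32 to 0.14 for Dnmt3b, -0.20 to 0.25 for Dnmt3l, -0.048 to 0.13 for Zfp57, -0.24 to 0.077 for Tet1 and -0.081 to 0.14 for Tet3. Without irradiated library 1, and with no limit on the fold change, Dnmt1, Dnmt3a and Dppa3 passed an adjusted p of 0.05, as did 16 genes of the wider lists and 34.3% of all genes; dropping the fold limit in that fit was decided after seeing the data, and the fit assumes that the single irradiated library varies as the controls do. The cause of these shifts was not tested.

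The replicate numbers are shared by the conditions, but the deviations of same-numbered libraries had a correlation of 0.098 over 12569 genes, and the labels tie them to no shared batch. With the replicate number as a block, 0 of the 10 gene totals were called, against 7 of all genes, and Dnmt1 was at -0.77. The planned test of counts grouped by start site was not run, because 43.4% of listed transcripts have a start in the annotation used.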
